A study of Mus musculus with 18 samples.

Results

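The genes described here are 29 genes of sterol and fatty acid synthesis, taken as named members of the mevalonate and cholesterol pathway, its regulators and the fatty acid enzymes. They were found in the data as the probe sets that the array annotation assigns to exactly 1 of them, under its current or an older symbol. Of the 29 genes, 28 had such a probe set, and all 28 were tested in at least 1 table, out of 11407 genes with a tested probe set in the series. No probe set of 1 gene stood for Acat2, so Acat2 is not analysed here.

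Cholesterol is built from acetyl-CoA through mevalonate, isoprenoids and squalene, and fatty acids are built from malonyl-CoA and then desaturated. The transcription factors SREBP-1 and SREBP-2 (Srebf1, Srebf2) switch on the genes of both routes when they are released from the endoplasmic reticulum. SCAP escorts them out, and the INSIG proteins hold them back when sterols are plentiful. The brain makes nearly all of its own cholesterol, in glia and in neurons, and the first postnatal weeks, when oligodendrocytes wrap axons in lipid-rich myelin, are a time of high demand.

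The study measured RNA from postnatal day 7 mice on 18 Affymetrix arrays, in 3 tables of 3 knockout and 3 wild-type arrays each: cortex on the A chip, cortex on the B chip, and samples titled rest, whose source is given as brain and whose extent is not stated. The knockout animals carried nestin Cre, which is active in neural progenitors and so leaves cells of another origin, such as microglia, outside its main target, a Brca1 allele with exons 5 to 13 floxed, and a null Brca1 allele that carries an inverted neo cassette in exon 11, at its 5' end. The other group is labelled wild type, and no further allele or transgene is given for it. The study's design text compares 3 wild-type with 3 conditional knockout animals. No sample label says that an array came from an animal of its own or links an animal between tables, so the p-values measure the spread between these samples. The deposited values are MAS5 signals. Knockout and wild-type signals were compared inside 1 table, and only the interaction below set the knockout effects of the cortex A chip and rest against each other.

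The targeted gene did not serve as a check of the labels. The Brca1 probe set 1424629_at had signals of 51.4, 44.0 and 61.4 on the knockout cortex A arrays, against 38.0, 36.9 and 48.9 on the wild-type ones, and in rest the range was 86.0 to 135 in knockout and 102 to 114 in wild type. Whether this probe set lies inside the floxed exons is not given in the sources used here, and the other 3 Brca1 probe sets were blank on most arrays. The Y-linked gene Eif2s3y was listed only on knockout replicates 1 and 2, in cortex and in rest alike, so the sex pattern differed between the groups. Of 9 cerebellar and hindbrain markers, 1 was measurable on the cortex A chip and 7 in rest. Among them Pcp2, a Purkinje cell gene, was uneven within both rest groups, with 51.9, 163 and 1171 in knockout and 280.4, 121 and 1240.0 in wild type.

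No sterol or fatty acid synthesis gene changed by the test in any table. Each probe set was fitted with limma on log2(signal + 16), p-values were adjusted by the Benjamini-Hochberg method over the whole table. A call means an adjusted p under 0.05. In cortex, 0 of 46 tested member probe sets were called on the A chip, where 3.02% of all tested probe sets were, and 0 of 7 on the B chip, where 0.281% were. In rest, 0 of 53 were called, against a background of 0.313%. At an unadjusted limma p under 0.05 the members numbered 5 of 46 on the A chip (10.9%, background 15.7%), 1 of 7 on the B chip (14.3%, background 7.39%) and 6 of 53 in rest (11.3%, background 10.5%). These shares lay near the background, apart from that of the B chip, where it is 1 probe set. With 3 arrays a group, a p that misses the threshold does not show that the values did not differ, and the intervals given below bound the change.

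As a list, the members had median changes near 0, with more genes below 0 than above it on the A chip (17 and 9) and in rest (19 and 9). On the B chip 2 lay below and 4 above. With the brightest tested probe set standing for each gene, the median log2 change (knockout minus wild type) was -0.03 over 26 genes on the cortex A chip, against -0.01 over 7274 genes in all. It was 0.10 over 6 genes on the B chip, against 0.01 over all genes there. In rest it was -0.06 over 28 genes, against 0.01 over 11093 genes. The median size of the change, without its sign, was 0.106 for members and 0.115 for all genes on the A chip, and 0.132 for members and 0.101 for all genes in rest. The changes ran from -0.23 (Mvk) to 0.44 (Dhcr7) on the A chip and from -0.28 (Hsd17b7) to 0.46 (Insig1) in rest. The 95% interval of the fold change lay within 2-fold in either direction for 26 of 26 genes on the A chip, 5 of 6 on the B chip and 28 of 28 in rest. It lay within 1.5-fold for 25 of 26 on the A chip, 4 of 6 on the B chip and 26 of 28 in rest. All RNA came from bulk tissue, where fewer cells of a type and less RNA per cell cannot be told apart.

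**Figure D1:**
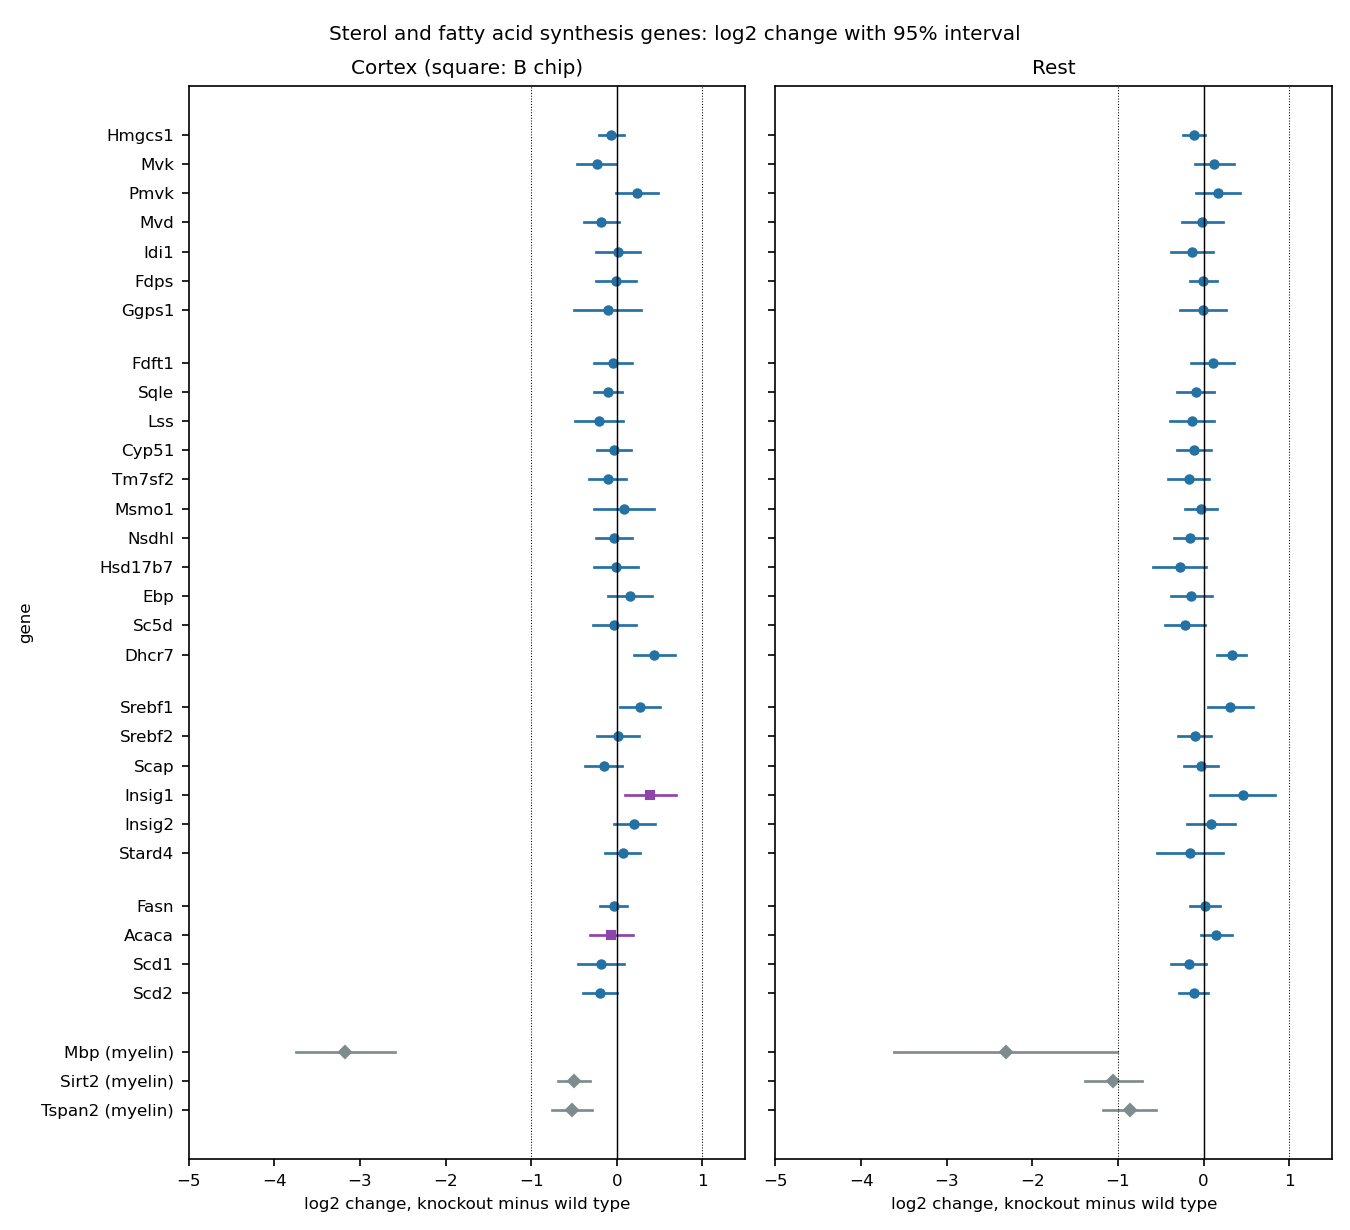
Log2 change (knockout minus wild type, horizontal axis) with its 95% interval for each member gene, grouped from top to bottom as early mevalonate pathway, squalene to cholesterol, regulators and transport, and fatty acids, in cortex (left; circles A chip, squares B chip) and rest (right). The 3 myelin genes at the foot are shown for scale, and the dotted lines mark 2-fold. By the brightest tested probe set of each gene, which is the one drawn, the members lie between -0.28 and 0.46, while Mbp lies at -3.17 in cortex. Dimmer member probe sets, not drawn, reached -0.59 (Sc5d) and 0.49 (Acaca) in rest.

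Promoter sequence is shown for 4 members. Dhcr7 and Mvk had the lowest p among the sterol enzymes on the cortex A chip. Insig1 and Hmgcs1 were added after their values and motif matches were seen, Insig1 because its signal was higher in knockout in both regions and Hmgcs1 because it was the only member whose window held the sterol element core. The windows are RefSeq's, of 300 bases each (250 before and 50 after the annotated start), on build GRCm38.p6, 5' to 3' on the gene's strand. They lie at chr7:143829964-143830263 (Dhcr7, plus strand), chr5:114444019-114444318 (Mvk, plus strand), chr5:28071162-28071461 (Insig1, plus strand) and chr13:119690101-119690400 (Hmgcs1, plus strand). Capitals mark the motifs searched on both strands: the sterol regulatory element core TCACNCCAC, the E-box CACGTG and the CCAAT box, which reads ATTGG on the other strand.
Dhcr7: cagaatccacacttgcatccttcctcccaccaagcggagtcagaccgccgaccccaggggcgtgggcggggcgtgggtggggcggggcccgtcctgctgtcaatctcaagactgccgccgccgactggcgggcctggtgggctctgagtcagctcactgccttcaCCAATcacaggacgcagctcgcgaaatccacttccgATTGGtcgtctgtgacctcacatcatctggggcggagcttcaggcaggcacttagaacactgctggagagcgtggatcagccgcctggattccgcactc
Mvk: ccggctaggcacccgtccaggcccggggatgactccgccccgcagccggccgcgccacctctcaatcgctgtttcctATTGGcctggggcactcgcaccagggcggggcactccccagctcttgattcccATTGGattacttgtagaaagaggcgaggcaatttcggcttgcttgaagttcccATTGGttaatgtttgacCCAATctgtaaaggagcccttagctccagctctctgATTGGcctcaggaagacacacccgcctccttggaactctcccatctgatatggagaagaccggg
Insig1: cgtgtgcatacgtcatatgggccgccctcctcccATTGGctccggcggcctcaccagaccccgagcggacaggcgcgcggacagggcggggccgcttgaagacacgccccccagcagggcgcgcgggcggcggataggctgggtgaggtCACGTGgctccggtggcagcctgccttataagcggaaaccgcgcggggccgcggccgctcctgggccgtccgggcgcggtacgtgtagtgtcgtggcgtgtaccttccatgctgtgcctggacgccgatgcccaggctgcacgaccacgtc
Hmgcs1: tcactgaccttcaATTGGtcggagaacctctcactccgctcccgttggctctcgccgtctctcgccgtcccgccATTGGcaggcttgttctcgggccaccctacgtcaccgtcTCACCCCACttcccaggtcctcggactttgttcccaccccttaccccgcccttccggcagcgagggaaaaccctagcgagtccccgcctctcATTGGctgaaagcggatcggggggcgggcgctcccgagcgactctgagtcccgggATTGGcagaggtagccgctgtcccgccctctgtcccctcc

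SREBP binds sterol elements and some E-boxes, and NF-Y, which binds CCAAT, is its usual partner at sterol genes. The sterol element core was in 1.24% of all 32851 windows of this length and in 3.23% of the 31 windows of 23 member genes, which is 1 window, that of Hmgcs1, where it starts 137 bases before the annotated start. The E-box was in 7.15% of all windows and in 19.4% of the member windows, which is 6 windows of 5 genes: Dhcr7, in another of its windows than the one shown, Hsd17b7, Insig1, Sc5d and Scap. A CCAAT box was in 37.4% of all windows and in 67.7% of the 31 member windows, with 5 boxes in the Mvk window alone. A match is a description of letters and not a shown site.

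In the early mevalonate pathway, which runs from HMG-CoA to the isoprenoids, the 7 measured genes lay between -0.23 and 0.24 (log2) on the A chip, with 2 above 0 and 5 below, and between -0.14 and 0.17 in rest, with the same split. Hmgcs1, the enzyme that makes HMG-CoA, was read by 4 probe sets on the A chip. Its brightest, 1433443_a_at, gave signals of 4928, 4604 and 4215 in knockout cortex and 4718, 4809.5 and 4795 in wild-type cortex. The ranges overlapped, and the log2 change was -0.06 (SE 0.067, limma adjusted p = 0.729). In rest the signals were 6706, 6893 and 6471 in knockout and 7554, 7198 and 6937 in wild type. There all 3 knockout arrays lay below the wild-type ones, by a log2 change of only -0.11 (adjusted p = 0.545).

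Idi1, which isomerises isopentenyl diphosphate, had 617, 551 and 571 in knockout cortex against 615, 646 and 473 in wild-type cortex. In rest Idi1 had 1003, 895 and 1136 in knockout and 972, 1211 and 1162 in wild type. Fdps, which joins isoprene units into farnesyl diphosphate, had 1034, 855 and 946 in knockout cortex against 886, 1102 and 866 in wild-type cortex. In rest Fdps had 1451, 1362 and 1442 in knockout and 1415, 1513 and 1348 in wild type. The groups overlapped for both genes in both regions, and the log2 changes were 0.01 and -0.14 for Idi1 and -0.0048 and -0.0059 for Fdps, in cortex and rest. The Fdps interval ran from 0.848-fold to 1.17-fold in cortex.

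Mvk, mevalonate kinase, had 317, 260.0 and 266 on the knockout cortex A arrays against 341, 329 and 327 on the wild-type ones (probe set 1418052_at). All 3 knockout arrays were lower, and the log2 change was -0.23 ± 0.103 (SE, adjusted p = 0.304 by limma). In rest the same probe set had 584, 504 and 477 in knockout and 507, 458 and 461 in wild type, a log2 change of 0.13 with overlapping groups. A second Mvk probe set, 1430619_a_at, had 289, 256 and 308 in knockout rest against 232, 257 and 205 in wild-type rest. Its log2 change was 0.28 there (limma adjusted p = 0.469) and -0.10 on the cortex A chip, so both probe sets lay below 0 in cortex and above 0 in rest. The next kinase, Pmvk, lay above 0 in both regions (0.24 and 0.17), with overlapping groups. Mvd, which decarboxylates the product, was lower on all 3 knockout cortex arrays by 1448663_s_at (-0.18, adjusted p = 0.392), while 1417303_at gave 0.04. Ggps1, which makes geranylgeranyl diphosphate for protein prenylation, had log2 changes of -0.11 in cortex and -0.0045 in rest by its brightest probe set.

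Of the 11 genes between squalene and cholesterol, 8 lay below 0 on the cortex A chip (median log2 change -0.03) and 9 in rest (median -0.14), none of them called. The first enzymes of this stretch differed little between genotypes. Fdft1, squalene synthase, had 774, 699 and 767 in knockout cortex against 739, 888 and 689.9 in wild-type cortex, and 1303, 1108 and 951 in knockout rest against 974, 1124 and 999 in wild-type rest. Sqle, squalene epoxidase, had 1229, 1094 and 1201 in knockout cortex and 1249, 1321 and 1220.4 in wild-type cortex, and 1691, 1422 and 1552 in knockout rest and 1549.6, 1883 and 1558 in wild-type rest. The groups overlapped for both genes in both regions. Their log2 changes were -0.04 and 0.11 for Fdft1 and -0.11 and -0.09 for Sqle, in cortex and rest.

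Cyp51, the lanosterol demethylase, had 338, 326 and 319 in knockout cortex and 332, 320.4 and 353 in wild-type cortex. In rest it had 620.0, 631 and 682 in knockout and 743, 632 and 715 in wild type, a log2 change of -0.11. Msmo1, the methylsterol monooxygenase of a later step, had 905, 1274 and 1219 in knockout cortex against 1199, 822 and 1198 in wild-type cortex, with 1 low array in each group. In rest Msmo1 had 1818, 1738 and 2056 in knockout and 1743, 1990.0 and 2005 in wild type. Cyp51 and Msmo1 thus overlapped between genotypes in both regions. The remaining genes of this stretch, Lss, Tm7sf2, Nsdhl, Hsd17b7 and Ebp, had log2 changes from -0.20 to 0.15 on the A chip and from -0.28 to -0.14 in rest.

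Dhcr7, the reductase that turns 7-dehydrocholesterol into cholesterol in the last step, was the member nearest the threshold. Its signals were 436, 434 and 486 on the knockout cortex A arrays against 331, 370.2 and 289 on the wild-type ones, with means of 452 ± 29.6 in knockout and 330.0 ± 40.6 in wild type (SD, n = 3 each). In rest they were 750.1, 727 and 752 in knockout against 596, 601 and 569.7 in wild type, with means of 743 ± 14.2 in knockout and 589 ± 16.9 in wild type (SD, n = 3 each). Every knockout array was above every wild-type array in both regions. The log2 change was 0.44 in cortex (SE 0.106, limma adjusted p = 0.0546) and 0.33 in rest (SE 0.0741, adjusted p = 0.138). The interval of the fold ran from 1.15 to 1.60 in cortex and from 1.12 to 1.41 in rest. In cortex the adjusted p was 0.0378 without wild-type replicate 2, at a log2 change of 0.52, and above the threshold under all other settings tried, up to 0.236. With a term for the sex marker, the log2 change was 0.54 in cortex and 0.34 in rest. The marker was listed on knockout replicates 1 and 2 only, so that fit leaves knockout replicate 3 alone against wild type.

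Sc5d, the desaturase just before Dhcr7, lay the other way in rest. By its brightest probe set, 1451457_at, it had 407, 348 and 429 in knockout rest against 476, 434 and 472 in wild-type rest. All 3 of its tested probe sets were lower on every knockout rest array, with log2 changes of -0.22, -0.19 and -0.59. The largest belonged to the dim 1424709_at, which had 105, 78.8 and 124 in knockout and 145, 170.4 and 165 in wild type (limma adjusted p = 0.243). Adding a sex-marker term, which leaves knockout replicate 3 alone against wild type, gave -0.33. In cortex, 1451457_at had 285, 241 and 259.9 in knockout and 239, 270.4 and 293 in wild type, a log2 change of -0.03 with overlapping groups.

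**Figure D2:**
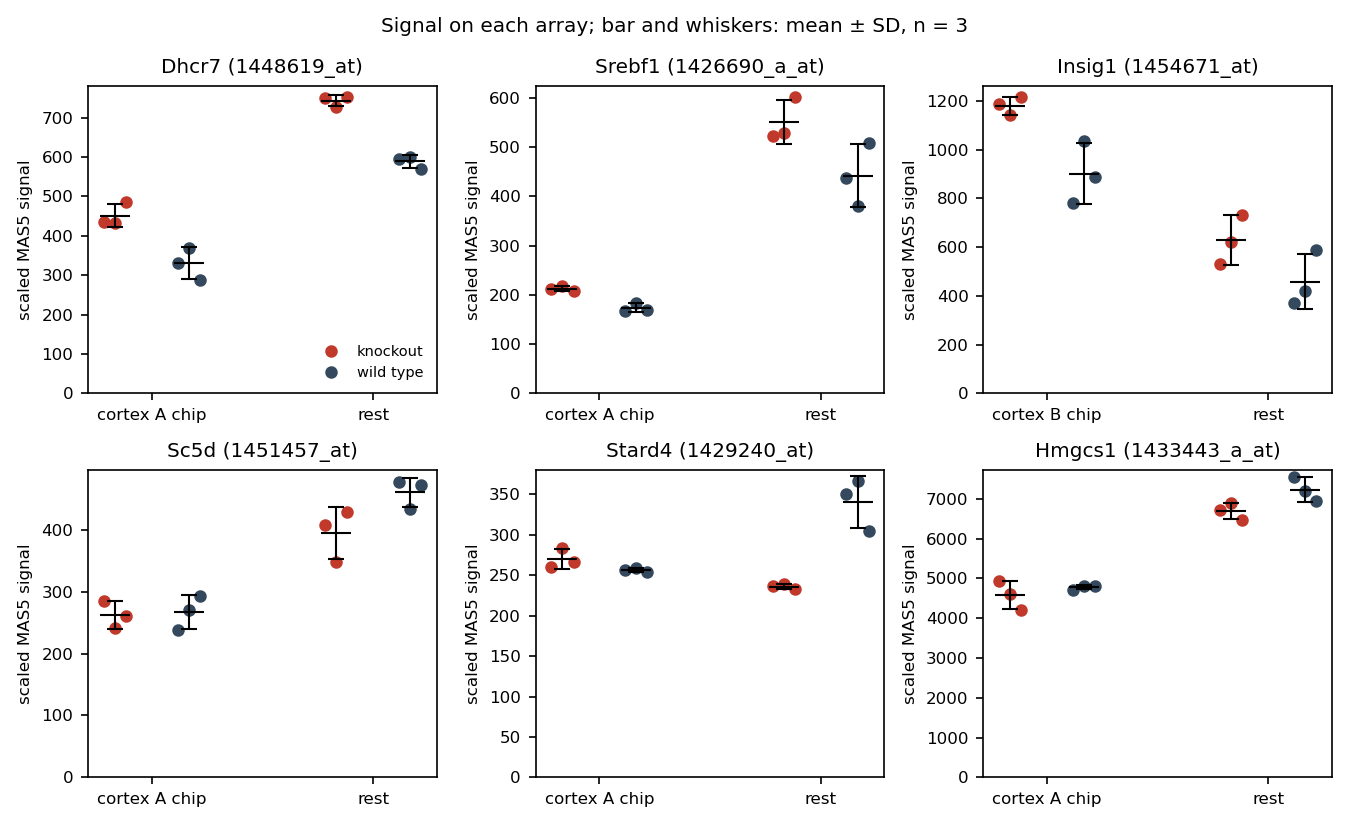
Scaled MAS5 signal on each array (vertical axis, from 0) for 6 member probe sets, knockout (red) left of wild type (dark), in cortex and in rest; bars and whiskers give the mean ± SD of 3 arrays. Each table was scaled on its own, so heights are comparable within a table only. Dhcr7 and Srebf1 were higher on all knockout arrays of both regions, and Hmgcs1 differed little. Stard4 by 1429240_at was lower in knockout rest (232 to 239, against 305 to 367). That probe set was picked as the Stard4 one with the lowest log2 change in rest. The brightest Stard4 probe set, 1455011_at, overlapped between genotypes there (log2 change -0.16). The other panels show the brightest probe set of the gene in rest.

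Among the regulators, Srebf1, which encodes SREBP-1, was higher on every knockout array of both regions. It had 211, 218 and 209 on the knockout cortex A arrays and 167, 184 and 170.3 on the wild-type ones, a log2 change of 0.27 ± 0.104 (SE, adjusted p = 0.230 by limma). In rest it had 522, 529 and 602 in knockout and 438, 380.3 and 509 in wild type, a log2 change of 0.31 (SE 0.117, adjusted p = 0.379). Srebf2, which encodes SREBP-2, the main driver of the cholesterol genes, had 688, 794 and 804 in knockout cortex and 727, 664 and 883 in wild-type cortex. In rest Srebf2 had 1179, 1088 and 991 in knockout and 1178, 1233 and 1088 in wild type. Its groups overlapped in both regions, with log2 changes of 0.01 and -0.10. Scap lay at -0.15 in cortex and -0.03 in rest.

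Insig1, whose transcription is itself raised by SREBP, was read on the B chip and in rest. It had 1186, 1142 and 1215 on the knockout cortex B arrays and 783, 1035 and 889 on the wild-type ones. All 3 knockout arrays were higher, by 0.39 ± 0.138 on the log2 scale (SE, adjusted p = 0.489 by limma). In rest it had 532, 623 and 734 in knockout and 369, 420.2 and 587 in wild type, a log2 change of 0.46 (SE 0.169, adjusted p = 0.375), and here knockout replicate 1 lay below wild-type replicate 3. With the sex-marker term, which leaves knockout replicate 3 alone against wild type, the log2 change was 0.43 in cortex and 0.69 in rest. For the B chip this term used the marker of the same-numbered cortex A arrays, and no label links the chips by animal.

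Insig2, the related anchor, had 256, 302 and 278 in knockout cortex and 226, 262 and 229.8 in wild-type cortex, a log2 change of 0.20 with overlapping groups. In rest it had 436, 543 and 546 in knockout and 418, 549 and 466 in wild type, a log2 change of 0.09. A dimmer Insig2 probe set, 1417982_at, was higher on all 3 knockout cortex arrays (0.26, limma adjusted p = 0.357).

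Stard4, a carrier of free cholesterol between membranes, had probe sets that differed in size. By 1429240_at it had 237, 239 and 232 in knockout rest against 351, 367 and 305 in wild-type rest, with means of 236 ± 3.25 in knockout and 341 ± 32.2 in wild type (SD, n = 3 each). All 3 knockout arrays were lower, and the log2 change was -0.50 ± 0.108 (SE, adjusted p = 0.123 by limma). On the cortex A chip the same probe set had 261, 284 and 266 in knockout and 257, 259 and 254 in wild type, a log2 change of 0.07. The other Stard4 probe sets gave -0.20 and -0.16 in rest, the brightest of them, 1455011_at, with overlapping groups.

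Whether the knockout effect differed between the regions was tested as an interaction, with the cortex A and rest arrays in 1 limma model. None of 46 member probe sets was called, where 0.0502% of 11959 were, and 3 of the 46 had an unadjusted p under 0.05, where 10.5% of all did. The 3 were Stard4 1429240_at (rest minus cortex -0.57, SE 0.129, limma adjusted p = 0.142), Mvk 1418052_at (0.36, adjusted p = 0.378) and Stard4 1429239_a_at (-0.42, adjusted p = 0.458, and -0.27 with an offset of 64).

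Of the fatty acid genes, Fasn, fatty acid synthase, had 1035, 1029.6 and 1015 in knockout cortex and 1016, 1114 and 1035 in wild-type cortex. In rest Fasn had 1756, 1477 and 1524 in knockout and 1589, 1599 and 1518 in wild type. The log2 changes were -0.04 and 0.01, and the interval ran from 0.875-fold to 1.08-fold in cortex. Acaca, which makes malonyl-CoA, lay at -0.06 on the B chip and 0.15 in rest. A dimmer Acaca probe set, 1427595_at, gave 0.49 in rest (limma adjusted p = 0.596), with overlapping groups.

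Scd2, the main stearoyl-CoA desaturase of the young mouse brain, had 2276, 2647 and 2049 on the knockout cortex A arrays and 2569, 2604 and 2808 on the wild-type ones (1415822_at). The groups overlapped through knockout replicate 2, and the log2 change was -0.20 (SE 0.0902, limma adjusted p = 0.315). A sex-marker term, which leaves knockout replicate 3 alone against wild type, gave -0.37. Leaving out knockout replicate 3 gave -0.11 (limma adjusted p = 0.574). A second probe set, 1415823_at, had 1743, 1931 and 1673 in knockout and 1852, 2118 and 2130.2 in wild type, a log2 change of -0.19 (adjusted p = 0.293), and the third gave -0.06. In rest 1415822_at had 4429, 5274 and 5203 in knockout and 5294, 5281 and 5541 in wild type, with all 3 knockout arrays lower by a log2 change of -0.12. Its paralog Scd1 lay at -0.18 in both regions.

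Counted over all member probe sets listed on all 6 arrays, the genotypes did not overlap for 6 of 42 on the cortex A chip (14.3%, background 21.6%), 4 higher and 2 lower in knockout. In rest they did not overlap for 11 of 52 (21.2%, background 16.4%), 3 higher and 8 lower. Of the member probe sets 7 on the A chip, 2 on the B chip and 9 in rest were not tested, and 5, 1 and 7 of these were blank on every array. Acaca 1427595_at was listed on 1 knockout and 3 wild-type cortex A arrays, at 34.9 against 31.3, 51.8 and 43.6, and Sc5d 1424709_at on 1 wild-type cortex array. In rest Hmgcs1 1441536_at was listed on 1 knockout and 2 wild-type arrays and Hsd17b7 1440057_at on 1 wild-type array. Msmo1 1459627_at was listed on 1 knockout cortex B array.

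Further genes of the pathway, which are not members, also gave 0 calls. Among all tested probe sets, 3.02% on the A chip, 0.281% on the B chip and 0.313% in rest were called. An unadjusted limma p under 0.05 was found for 15.7%, 7.39% and 10.5% of all probe sets. Of 17 measured genes of fatty acid supply and elongation on the A chip and 18 in rest, 0 were called, and 4 and 2 had an unadjusted limma p under 0.05. Of 12 and 13 measured genes of cholesterol transport, esters and oxysterols, 0 were called, and 1 and 3 had an unadjusted p under 0.05. The 4 of 17 on the A chip and the 3 of 13 in rest lay above the share over all probe sets, in short lists. Of the genes that process SREBP, none was called among 2 on the A chip, 3 on the B chip and 5 in rest, and 0 had an unadjusted p under 0.05. On the B chip the first 2 lists had 4 measured genes each, with 0 called and 0 at an unadjusted p under 0.05.

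Elovl1, which elongates saturated fatty acids to the very long chains of sphingolipids, was among the genes with a low unadjusted p, and it was singled out after its values were seen. It had 219, 219 and 189.5 in knockout cortex against 178, 156 and 156 in wild-type cortex, a log2 change of 0.33 (adjusted p = 0.181, limma). In rest it had 258, 296 and 397 in knockout against 453, 439 and 482 in wild type, a log2 change of -0.53 (adjusted p = 0.229). The knockout arrays were all higher in cortex and all lower in rest, and the interaction was -0.86 (SE 0.188, limma adjusted p = 0.129).

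The genes of myelin itself were measured on the same arrays. Of 26 myelin and mature oligodendrocyte genes, 10 were measured on the cortex A chip, of which 4 fell (Mbp, Sirt2, Tspan2, Ugt8a) and 0 rose, with 6 below 0, 4 above and a median log2 change of -0.45. The 4 above 0 were Cldn11 (0.43), Plekhb1 (0.27), Cryab (0.25) and Gsn (0.14), none called, and Aspa was listed on 2 knockout and 0 wild-type cortex arrays. Mbp, a main protein of compact myelin, had 117, 314 and 153 in knockout cortex against 1909.5, 1461 and 1901 in wild-type cortex, a log2 change of -3.17. In rest 16 were measured, of which 5 fell (Mal, Fa2h, Gsn, Sirt2, Tspan2), 15 lay below 0, and the median was -1.72. Mal, a myelin proteolipid, had 52.0, 72.1 and 139.5 in knockout rest against 451, 502 and 472 in wild-type rest, a log2 change of -2.33 (adjusted p = 0.00835, limma). Fa2h, which hydroxylates the fatty acids of myelin sphingolipids, had 72.7, 64 and 143 in knockout rest and 347, 371 and 539 in wild-type rest. Mag and Mobp were listed on all 3 wild-type cortex arrays and on 0 knockout ones, and so, in rest, were Opalin, Enpp6 and Myrf. On the B chip Bcas1 fell as well (log2 change -1.51). The fall of the myelin genes was known when the gene lists were chosen and is given as the setting only.

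**Figure D3:**
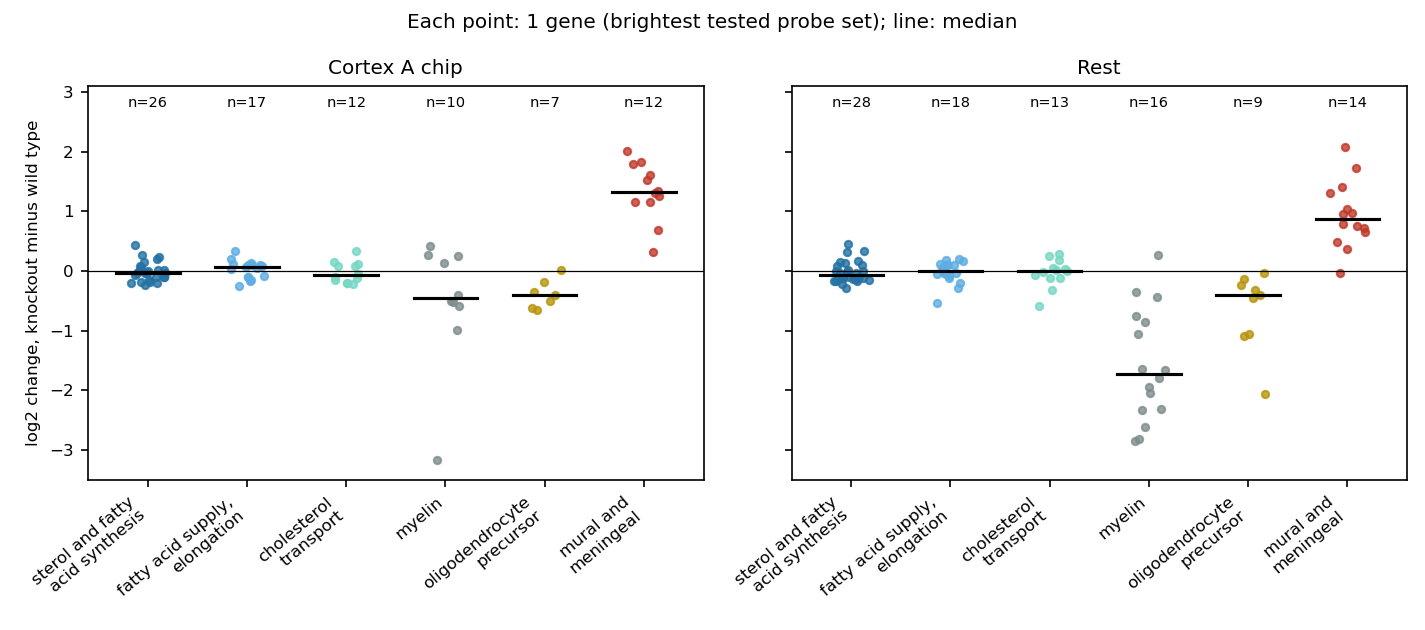
Log2 change (knockout minus wild type, vertical axis) of each measured gene of 6 lists on the cortex A chip (left) and in rest (right); each point is 1 gene and the line is the list's median. The sterol and fatty acid synthesis genes sit around 0 (medians -0.03 and -0.06), while the myelin genes have medians of -0.45 and -1.72 and the mural and meningeal genes 1.32 and 0.87.

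The median of the synthesis genes was set beside the myelin loss array by array. In rest the median deviation of the myelin genes from their wild-type mean was -2.20, -1.84 and -0.82 on knockout replicates 1, 2 and 3, and between -0.09 and 0.04 on the wild-type arrays. On the same knockout arrays the median deviation of the 28 members was -0.01, -0.07 and -0.05, and on the wild-type arrays it lay between -0.01 and 0.02. On the cortex A chip the members had -0.01, -0.03 and -0.04 in knockout and between -0.05 and 0.01 in wild type. By role, the squalene-to-cholesterol genes in rest had -0.07, -0.14 and -0.10 in knockout and between -0.03 and 0.04 in wild type. The early mevalonate genes had 0.03, -0.04 and 0.01 and the fatty acid genes -0.06, -0.06 and -0.04 on these knockout arrays. The regulators had 0.13, 0.08 and 0.03 there, and between -0.06 and 0.09 in wild type. On the cortex A chip the 3 fatty acid genes had -0.03, -0.03 and -0.37 on knockout replicates 1, 2 and 3, and between -0.05 and 0.08 in wild type, while the myelin genes had -0.52, -0.28 and -0.22 on those knockout arrays. Knockout replicate 3 thus had the lowest fatty acid median, which is the value of Scd2, and the smallest myelin loss by median in cortex. By Mbp alone, knockout replicate 2 had the smallest loss. How the lists relate across arrays was not tested. Leaving out knockout replicate 3 gave a member median of -0.04 in rest.

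**Figure D4:**
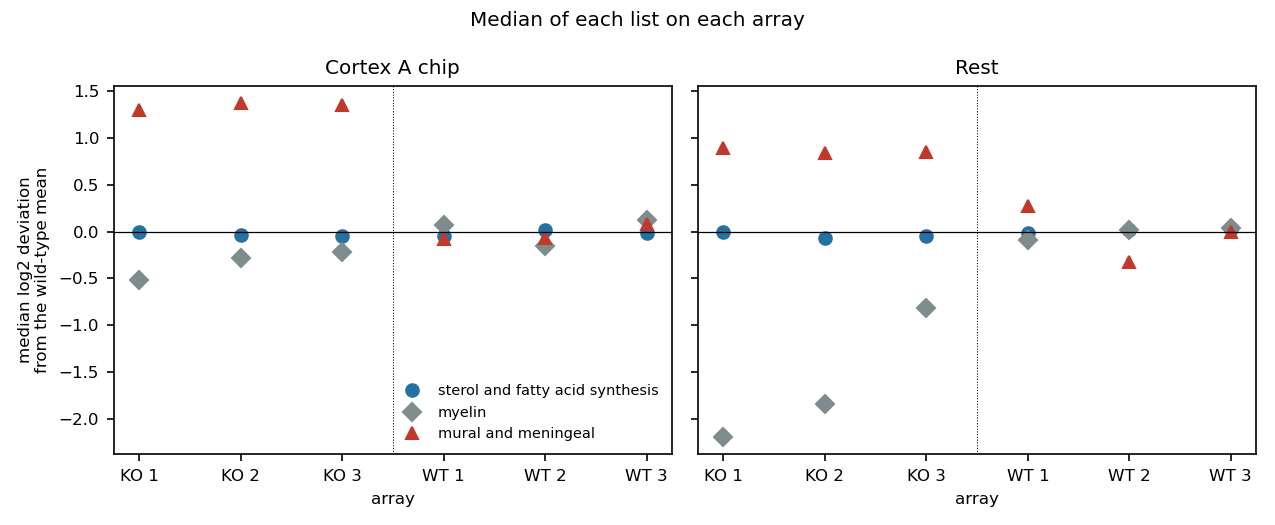
Median log2 deviation from the wild-type mean (vertical axis) of the genes of 3 lists on each array (horizontal axis; KO knockout, WT wild type), cortex A chip on the left and rest on the right. The circles of the synthesis genes stay between -0.07 and 0.02 on every array, while the diamonds of the myelin genes reach -2.20 on knockout replicate 1 of rest.

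Other cell types' markers moved with genotype too, and their part in the values of the synthesis genes was not tested. The summed signal of the 9 myelin genes listed on every cortex A array was 2134 to 2607 in knockout and 3865 to 4591 in wild type, and that of 14 in rest was 3999 to 8793 in knockout and 14922 to 15787 in wild type. Of the oligodendrocyte precursor genes 2 of 7 fell in cortex (Olig1, C1ql1) and 3 of 9 in rest (Gpr17, Sox10, Olig2). Of 12 measured mural and meningeal genes 11 rose in cortex, where the sum of 10 listed on every array was 8753 to 9905 in knockout and 3594 to 4088 in wild type. In rest 6 of 14 rose, with sums of 13770 to 14091 in knockout and 6267 to 10200.4 in wild type. Of 8 microglial and macrophage genes 7 rose in cortex (sum of 6 genes 3567 to 4006 in knockout, 2056 to 2353 in wild type), and 0 of 7 were called in rest. Of 10 astrocyte genes, 2 rose in cortex, Gja1 and Aqp4 (sum 9983 to 12101 in knockout, 8460 to 8837 in wild type), and 0 in rest. Of 7 measured endothelial genes 3 rose on the cortex A chip, and 0 of 7 were called in rest. Of 10 neuron genes 1 fell and 0 rose on the A chip, and 0 were called in rest. Choroid plexus genes called were 0 of 2 on the A chip, 1 of 3 on the B chip (a rise) and 0 of 4 in rest.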

How the data were processed

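The deposited values are probe set intensity values (signals), not logged, which the authors made with MAS5, per the submitters' processing notes; no version or setting is given. Per the labels' protocols, total RNA was extracted with TRIZOL and labelled by the standard Affymetrix protocol. Many cells are blank, and the labels do not say why. Array control probe sets were dropped. The arrays of a table were brought to the same trimmed mean (2% cut from either end, over probe sets without a blank), by factors of 0.948 to 1.06, and signals were taken as log2(signal + 16). The number of arrays limits the precision.

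A probe set was tested where at least 2 arrays of each genotype listed it. Within a table, knockout minus wild type was fitted with limma 3.58.1 in R 4.3.3 (no covariate; eBayes with an intensity trend), with Benjamini-Hochberg adjustment over that table. The interaction of genotype and region came from 1 fit of the cortex A and rest arrays. The procedure was tested on simulated data. Probe sets were named through the array annotation, with symbols updated by gene identifier; promoter windows are RefSeq's for GRCm38.p6.

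The members and all gene lists were chosen with earlier results of these data known, and nothing here is independent support for those results. Values on every array are given for member probe sets with an unadjusted limma p under 0.05 and for the brightest probe set of 13 enzymes and regulators (Hmgcs1, Idi1, Fdps, Fdft1, Sqle, Cyp51, Msmo1, Fasn, Scd2, Srebf1, Srebf2, Insig1, Insig2); other members are given by range. Called genes of other lists are named for some lists and only counted for others. The replicate numbers were not used as pairs in the main fits. Same-numbered arrays had deviations that correlated at -0.0088 to 0.25, with not every pair over 0.1 in any table. These correlations cannot show that the samples were unpaired. With the replicate number as a block, whole-table calls were 299 on the A chip, 12 on the B chip and 142 in rest. Without it they were 364, 22 and 67. Alternatives were other scalings, offsets, treatments of blanks, filters, a replicate block, a sex-marker term, no variance trend, the mean over a gene's probe sets, and leaving out each array. The sex-marker term leaves knockout replicate 3 alone against the wild-type arrays, so it rests on 1 knockout array. For the B chip it used the marker pattern of the same-numbered cortex A arrays, which assumes that these came from the same animals.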

Additional observations from a re-analysis of the deposited data

How the results depend on the processing

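No member was called on the cortex B chip or in rest under any of 18 alternatives a table, nor in the interaction under 16, and on the cortex A chip 0 to 1 were called when an array was left out: 1 (Dhcr7, log2 change 0.52, adjusted p = 0.0378) without wild-type replicate 2. With the replicate number as a block, 0 members were called in each table and in the interaction, and the member medians were -0.03, 0.10 and -0.06 for the cortex A chip, the B chip and rest. Leaving out 1 array moved the medians over -0.069 to -0.018, 0.012 to 0.13 and -0.075 to -0.039. The B chip median was -0.038 with the sex-marker term, which leaves knockout replicate 3 alone against wild type. That term took its marker from the cortex A arrays. The rest median was -0.031 with the filter at the 60th percentile, and the cause of that shift was not tested. No member probe set with an unadjusted limma p under 0.05 changed direction under any alternative run for it. Whole-table calls ranged over 82 to 377 on the A chip (364 as reported), 1 to 32 on the B chip (22), 10 to 142 in rest (67) and 3 to 27 in the interaction (6). Setting blanks to a low signal was run with and without probe sets blank on all arrays; the second was added after the data were seen, since probe sets blank throughout differ only through the scaling.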
